A study of Mus musculus with 12 samples.

Results

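The genes described here are 31 genes of the interferon response and of antigen presentation by major histocompatibility complex (MHC) class I. They were followed through mouse cells sorted as astrocytes, in groups that differ in brain region and in the CD51 label. The members were chosen by gene name and matched to the deposited counts by Ensembl gene ID. All 31 were found among the 55401 gene IDs of the counts, and all 31 had at least 1 count. A filter on low counts kept 12613 genes for testing, among them 21 of the 31 members. The 10 members that did not pass are Tap1, Psmb8, Psmb9, Nlrc5, Irf7, Ifit1, Isg15, Oasl2, Mx1 and Usp18, and these are described by their values alone.

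Cells came from the cortex and the hippocampus of CD51-Flp; Rosa-CAG-FSF-tdTomato mice. Itgav encodes CD51, the alpha-v integrin subunit. The CD51-driven Flp recombinase opens the tdTomato reporter, and because recombination is permanent, tdTomato also marks cells that expressed CD51 earlier. The cells sorted as CD51+ astrocytes carried tdTomato and GFP, and those sorted as CD51- astrocytes carried GFP without tdTomato. The sources used here give neither the driver of GFP nor the age and sex of the mice. The 4 groups were cortex CD51+, cortex CD51-, hippocampus CD51+ and hippocampus CD51-, with 3 libraries each. The labels do not say that replicates came from separate mice, and a p-value here speaks only of library-to-library spread, which may be technical. The sample titles set the groups, but the names of the libraries (G where the title says CD51+, GT where it says CD51-) may mean the reverse assignment. Itgav itself did not settle this: its log2 fold change of CD51+ against CD51- was 0.91 in cortex (edgeR adjusted p = 0.269) and -0.04 in hippocampus (edgeR adjusted p = 0.984). Every direction below therefore refers to the class in the title.

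Type I interferons signal through a receptor made of Ifnar1 and Ifnar2, and type II interferon through one made of Ifngr1 and Ifngr2. Both routes use STAT proteins and interferon regulatory factors, which bind short motifs in the promoters of interferon-stimulated genes. The interferon-stimulated response element (ISRE) is read by a complex that holds STAT2 and IRF9 and by other interferon regulatory factors, and the gamma-activated site (GAS) is a motif of the interferon gamma response. MHC class I molecules are made of a heavy chain, encoded in mice by H2-K1, H2-D1 and related genes, and of the light chain beta-2 microglobulin, encoded by B2m. They carry peptides that the proteasome cuts and the TAP transporter moves into the endoplasmic reticulum. In the brain, microglia and macrophages express class I and interferon genes at higher levels than resting astrocytes, while astrocytes can raise them when stimulated.

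The promoter sequences of 6 members are shown because they hold the motifs by which these genes are usually grouped. They are 120 bases each, from 170 to 51 bases before the annotated start, from RefSeq (GRCm38.p6), on the strand of the gene, 5′ to 3′. Capitals mark every match to the motifs searched on both strands: the ISRE core TTTCNNTTT, the GAS TTCNNNGAA, the NF-kB motif GGGACTTTC and the class I interferon consensus TTTCACTTC. Matches may overlap. The last motif was added after the letters had been seen, and except for the GAS the motifs were shortened after longer forms had been searched.
B2m, chr2:122147517-122147636, plus strand: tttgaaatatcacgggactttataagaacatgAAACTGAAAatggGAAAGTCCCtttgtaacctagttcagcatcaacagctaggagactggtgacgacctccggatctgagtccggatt
H2-K1, chr17:34000398-34000517, minus strand: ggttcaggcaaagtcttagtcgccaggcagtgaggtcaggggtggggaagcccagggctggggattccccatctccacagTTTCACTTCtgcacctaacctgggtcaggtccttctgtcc
H2-D1, chr17:35262924-35263043, plus strand: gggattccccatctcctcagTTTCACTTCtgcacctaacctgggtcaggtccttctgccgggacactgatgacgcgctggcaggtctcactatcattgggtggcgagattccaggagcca
Irf1, chr11:53769844-53769963, plus strand: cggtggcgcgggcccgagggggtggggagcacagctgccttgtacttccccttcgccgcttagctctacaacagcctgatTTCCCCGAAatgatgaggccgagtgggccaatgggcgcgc
Bst2, chr8:71537523-71537642, minus strand: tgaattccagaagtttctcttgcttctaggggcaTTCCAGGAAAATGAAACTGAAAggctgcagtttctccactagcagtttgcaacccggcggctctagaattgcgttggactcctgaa
Isg15, chr4:156200869-156200988, minus strand: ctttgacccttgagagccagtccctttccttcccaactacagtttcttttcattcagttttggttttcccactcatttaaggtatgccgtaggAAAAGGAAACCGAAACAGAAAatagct

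Promoters were found for 26 of the 31 members, each covering 250 bases before to 50 bases after a start site. The ISRE core stood in the promoter of 11 of these 26 members (42.3%), against 12.1% of 27025 genes with a promoter in the same table. Those 11 were B2m, Bst2, H2-T23, Ifih1, Ifit1, Ifit3, Ifitm3, Isg15, Rsad2, Stat2 and Xaf1, and Isg15 held 3 overlapping copies. With the ISRE core 1 letter longer, the shares were 38.5% of members and 3.99% of genes. The GAS letters stood in 7 of 26 members (26.9%) against 9.55% of genes, among them Irf1 at 90 bases before its start. B2m held an ISRE core and, shortly downstream, the NF-kB motif, which Ifngr2 also carried (7.69% of members) against 0.403% of genes. Only this form of the NF-kB motif was searched. Promoters without it, such as those of H2-K1 and H2-D1, may hold other forms. The class I consensus stood in H2-K1 and H2-D1, for which it was chosen, and in 0.596% of all genes. A match is a description of the letters, and binding was not measured.

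Library totals ran from 4.35 to 12.8 (in units of 1e+06 counted read pairs), and the intervals and floors given below cover counting error only. Mitochondrial genes took 36.5% to 71.1% of the counts in the CD51+ libraries and 20.2% to 38.6% in the CD51- libraries. Cortex CD51+ replicate 3 stood apart, with 58.4% of its counts on the mitochondrial ribosomal RNA genes against 1.04% to 3.54% elsewhere. Levels are given as CPM, counts scaled to 1e+06 per library, with library sizes adjusted by the trimmed mean of M values. The markers of the labelled cell type were present in every library: the summed level of 12 astrocyte markers was 41122 to 66413 CPM in the CD51+ libraries and 3832 to 14681 CPM in the CD51- libraries. Mean sums of these, of 10 oligodendrocyte and of 14 microglial markers were 6770, 43611 and 11071 CPM in cortex CD51-. They were 13278, 23391 and 7429 CPM in hippocampus CD51-. In cortex CD51+ they were 57055, 2800 and 623 CPM, and in hippocampus CD51+ 46833, 3075 and 737 CPM. The name astrocyte is therefore that of the labels, and sums over different genes do not give shares of cells. Between 13 and 21 members had a count in a CD51+ library, and between 19 and 28 in a CD51- library.

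The heavy chain genes H2-K1 and H2-D1 were lower in the libraries labelled CD51+ in both regions. In cortex 6 of the 21 tested members were lower and 0 higher by edgeR at an adjusted p under 0.05 (28.6% lower), where 6.27% of all tested genes were lower, 5.05% higher and 11.3% changed in either direction. These were B2m, H2-K1, H2-D1, Tapbp, Irf1 and Ifngr1. In hippocampus 2 members were lower and 0 higher (9.52% lower), where 2.7% of all tested genes were lower, 0.618% higher and 3.31% changed in either direction. These were H2-K1 and H2-D1. Averaged over the regions 8 members were lower and 0 higher (38.1% lower), against 13.9% of all tested genes lower, 8.87% higher and 22.7% changed in either direction. These were the 6 of cortex with H2-T23 and Xaf1. H2-T23, Irf1 and Xaf1 passed the filter through their CD51- libraries only, so they are in these numbers but had to differ in order to be tested. Among the other 18 tested members, 5 were lower in cortex, 2 in hippocampus and 5 in the average. Of these 18, Irf9, Ifnar2, Ifit2 and Ifit3 reached the filter level in 2 CD51+ libraries, and Bst2 and Rsad2 in 1. They too needed CD51- libraries to pass, and none of them was called. The shares of all tested genes were not restricted in this way. In such bulk libraries, fewer cells of a type and less RNA per cell cannot be told apart. Without cortex CD51+ replicate 3 the cortex count was 2, H2-K1 and Ifngr1. The hippocampus count was 1, H2-K1, without hippocampus CD51+ library 1 or 2 or CD51- library 2 or 3, and 4 without cortex CD51- library 3, where B2m and Irf7 were added. With cortex CD51+ replicate 3 and hippocampus CD51+ replicate 3 left out together, the count was 4 in cortex, 4 in hippocampus and 7 in the average.

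The median log2 fold change of the 21 tested members was -3.55 in cortex and -1.73 in hippocampus, where the medians of all tested genes were -0.03 and -0.22. With the members that had 0 to 3 counts in a class placed at their bound or counting ratio, the medians were -2.69 and -1.73. The 3 libraries of each class did not overlap, CD51+ being lower, for 11 of 21 members in cortex (52.4%) and for 9 of 21 in hippocampus (42.9%). Both sets hold H2-T23, Irf1 and Xaf1, and of the other 18 members 8 and 6 did not overlap. The 8 include Irf9, which also needed CD51- libraries to pass the filter. Of all tested genes, not restricted by class, 16.6% and 16.7% did not overlap with CD51+ lower. No tested member had all CD51+ libraries above all CD51- libraries, as 15.1% and 10.5% of all tested genes did. B2m, H2-K1, H2-D1, H2-T23, Tapbp, Irf1, Xaf1 and Ifngr1 belong to both sets. For H2-T23, and for Xaf1 in hippocampus, the separation rests on counts near 0. The lowest CD51- library of H2-T23 held 1 count in cortex and 3 in hippocampus, where the highest CD51+ libraries held 0 and 1.

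**Figure D1:**
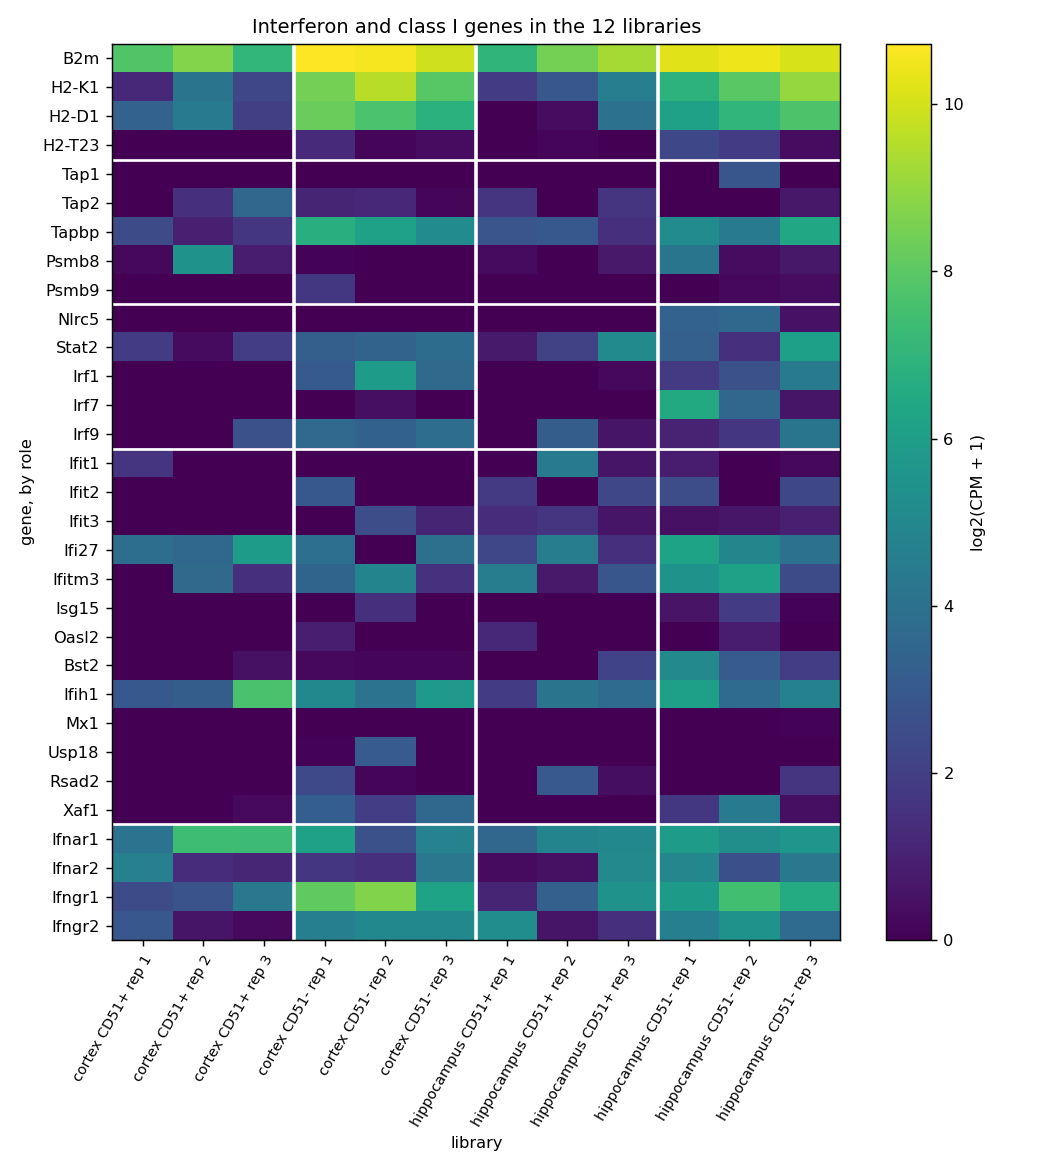
Heat map of log2(CPM + 1) for the 31 members (vertical, grouped by role with white lines between the groups) in the 12 libraries (horizontal, 3 per group). B2m was the brightest row in every library except cortex CD51+ replicate 3, where Ifih1 at 199 CPM and Ifnar1 at 164 CPM exceeded its 136 CPM, and 13 members had no count in any cortex CD51+ library.

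Among the class I chains, B2m encodes the light chain that every class I heavy chain needs to reach the cell surface. Its level was 224, 420 and 136 CPM in the cortex CD51+ libraries and 1686, 1509 and 979 CPM in cortex CD51-. The hippocampus CD51+ libraries held 128, 353 and 627 CPM and the CD51- libraries 1218, 1384 and 1089 CPM. The ranges of the classes did not overlap in either region, and the nearest pair was hippocampus CD51+ replicate 3 and hippocampus CD51- replicate 3. The log2 fold change was -2.42 ± 0.58 (standard error, here and below) in cortex (edgeR adjusted p = 0.00956), and without cortex CD51+ replicate 3 the call was lost (adjusted p = 0.0501). In hippocampus it was -1.73 ± 0.57, which missed the threshold (edgeR adjusted p = 0.102), and averaged over the regions it was -2.08 ± 0.41 (edgeR adjusted p = 0.000915).

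H2-K1, the heavy chain of the K molecule, differed more. Its levels were 1.34, 16.4 and 3.86 CPM in cortex CD51+ and 353, 767 and 243 CPM in cortex CD51-. The hippocampus CD51+ libraries measured 2.75, 6.57 and 22.8 CPM, far from the 120.1, 249.8 and 526 CPM of hippocampus CD51-. No CD51+ library came near a CD51- library. The log2 fold changes were -5.97 ± 1.05 in cortex (edgeR adjusted p = 0.00085), -4.80 ± 0.99 in hippocampus (edgeR adjusted p = 0.00692) and -5.38 ± 0.72 averaged (edgeR adjusted p = 1.61e-05). H2-K1 stayed under the threshold in both regions whichever library was left out.

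H2-D1, the heavy chain of the D molecule, measured 9.40, 20.01 and 3.04 CPM in cortex CD51+ and 304, 204 and 115 CPM in cortex CD51-. The hippocampus CD51+ libraries held 0, 0.268 and 15.6 CPM, and the CD51- libraries 69.7, 133.6 and 213 CPM. The third hippocampus CD51+ library held nearly all counts of its group and was still below every CD51- library. The log2 fold change was -4.26 ± 1.28 in cortex (edgeR adjusted p = 0.0343) and -4.71 ± 1.31 in hippocampus (edgeR adjusted p = 0.0475). In cortex the adjusted p rose to 0.078 without the first CD51+ library, to 0.107 without the third and to 0.0675 without the first CD51- library. In hippocampus it rose to 0.105 and 0.148 without CD51+ libraries 1 and 2, and to 0.0671 and 0.0793 without CD51- libraries 2 and 3, so that both calls depended on single libraries. Without hippocampus CD51+ library 3 the other 2 libraries of that group held 2 counts, and the fitted value, which is no bound, was -9.66. Averaged over regions it was -4.48 ± 0.92 (edgeR adjusted p = 0.00132).

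H2-T23, the heavy chain of the non-classical Qa-1 molecule, was near its limit of detection, with 1 count over all 6 CD51+ libraries and 102 over the 6 CD51- libraries. Its highest level was 3.94 CPM, in hippocampus CD51- replicate 1. It passed the filter through its CD51- libraries only, so it had to differ in order to be tested. The averaged call (edgeR adjusted p = 0.0251) was lost under every leave-one-out fit, where the adjusted p ranged from 0.0502 to 0.103. Counts of these genes are uncertain for a further reason: class I heavy chain genes are near-identical in places, and only the primary alignment of each read pair was counted, so pairs can be placed on a related gene.

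**Figure D2:**
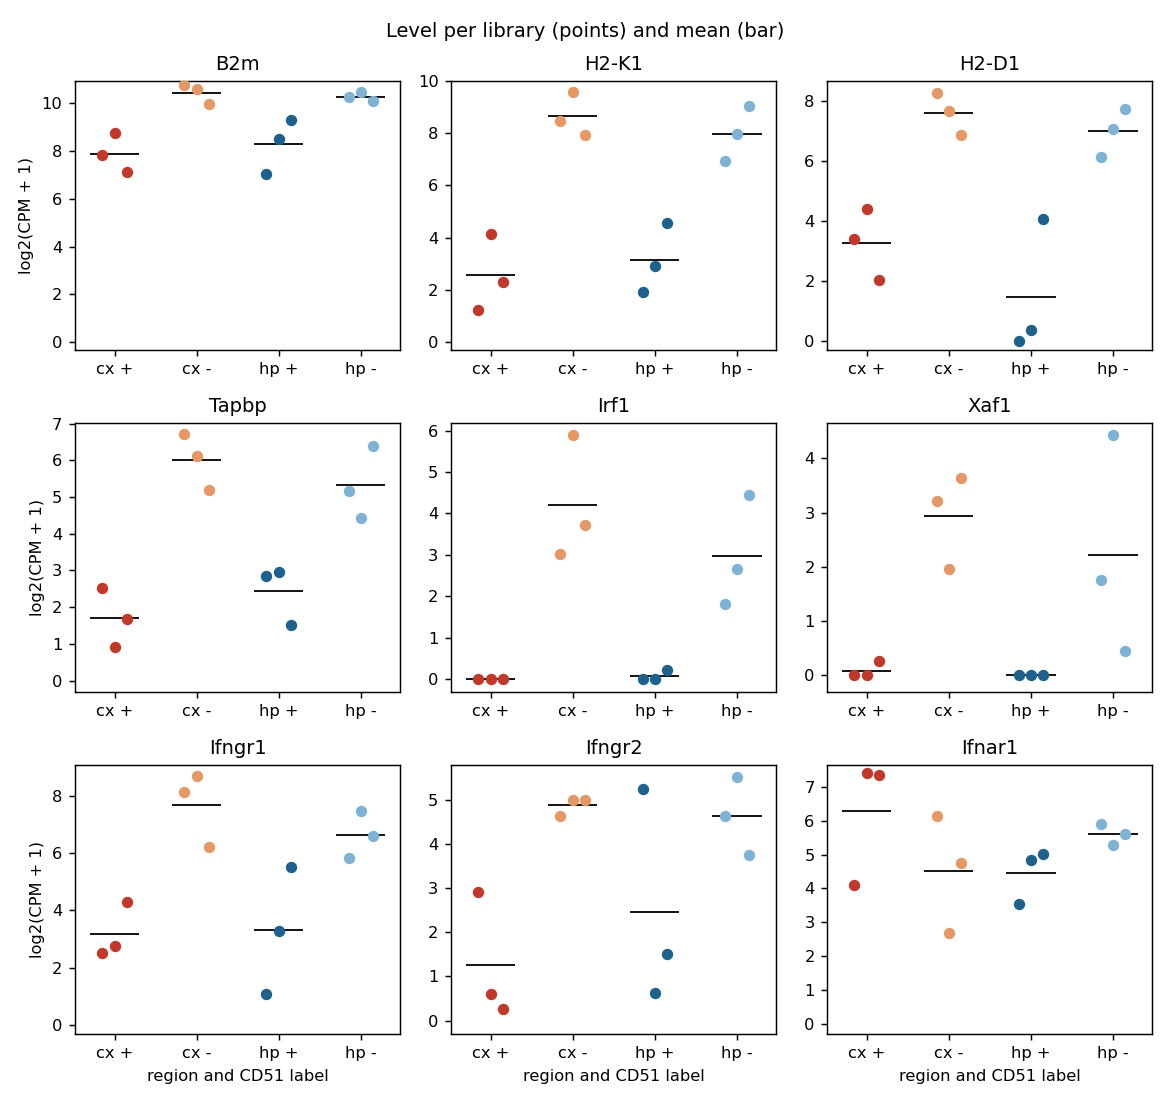
Levels of 9 members as log2(CPM + 1) on the vertical axis, 1 point per library and a bar at the mean of the 3 libraries, in cortex (cx) and hippocampus (hp) sorted as CD51+ (+) or CD51- (-). For B2m, H2-K1, H2-D1, Tapbp, Irf1, Xaf1 and Ifngr1 every CD51+ point lies below every CD51- point of its region, while for Ifnar1 the classes overlap in cortex.

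Of the genes that supply and load peptide, 2 of 5 were tested and Tapbp changed. It encodes tapasin, which bridges class I to the TAP transporter. Its levels were 4.70, 0.898 and 2.23 CPM in cortex CD51+ and 104.6, 68.7 and 35.5 CPM in cortex CD51-. In hippocampus they were 6.19, 6.84 and 1.84 CPM against 34.8, 20.6 and 83.4 CPM, again without overlap. The log2 fold change was -4.73 ± 1.33 in cortex (edgeR adjusted p = 0.0248), -3.22 ± 1.24 in hippocampus (edgeR adjusted p = 0.151) and -3.97 ± 0.91 averaged (edgeR adjusted p = 0.00348). The cortex call ended (adjusted p = 0.0939, 0.0832 and 0.0819) when CD51+ library 2, CD51+ library 3 or CD51- library 1 was left out. Exons of Tapbp overlap those of Zbtb22 and Gm19412, and counting was unstranded.

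The transporter and immunoproteasome genes were sparse. Tap1, one chain of the TAP transporter, had 68 counts, all in hippocampus CD51- replicate 2. Tap2, the other chain, reached at most 10.6 CPM, in cortex CD51+ replicate 3, and its log2 fold change of 2.19 ± 2.33 in cortex and 2.65 ± 2.37 in hippocampus was of the size of its standard error (edgeR adjusted p = 0.565 and 0.635). Psmb8, a catalytic subunit of the immunoproteasome, had 346 of its 572 counts in a single library, cortex CD51+ replicate 2 (44.4 CPM), and its next highest level was 16.8 CPM in hippocampus CD51- replicate 1. Psmb9, another catalytic subunit, had 33 counts in all, of which 28 lay in cortex CD51- replicate 1. No class pattern can be read from these 4 genes. Exons of Tap1 and Psmb9 overlap on opposite strands and could not be separated. Those of Tap2 and Psmb8 overlap Gm20496 on the opposite strand.

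Among the regulators, Irf1 had the most one-sided counts. It encodes a transcription factor that is induced by interferon gamma and drives class I genes. No cortex CD51+ library held a count, while the cortex CD51- libraries held 7.09, 58.1 and 12.1 CPM (652 counts). Against a floor of 3 counts over the CD51+ group this was at least 150-fold lower (edgeR adjusted p = 0.0209). Irf1 passed the filter through its CD51- libraries only, so it had to differ in order to be tested. The call ended when any 1 of the cortex CD51+ libraries 1, 2 and 3 was left out (adjusted p = 0.0632, 0.0658 and 0.0593), and also without CD51- library 2 (0.0775). In hippocampus the CD51+ libraries held 0, 0 and 0.168 CPM, which is 1 count, against 2.55, 5.29 and 20.9 CPM (319 counts) in CD51-. The ratio was 167, with a 95% counting interval of 29.7 to 6613, and the test missed the threshold (edgeR adjusted p = 0.122). Over both regions the counts were 1 and 971, a ratio of 580 with an interval of 104 to 22934 (edgeR adjusted p = 0.0023). Exons of Irf1 overlap those of Gm17334 on the opposite strand, and counting was unstranded.

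Irf7 and Nlrc5 did not pass the filter but were unevenly placed between regions. Irf7, a master regulator of type I interferon genes, measured 89.7, 10.6 and 0.543 CPM in hippocampus CD51-, with 1092 of its 1215 counts in replicate 1. It had 3 counts in cortex CD51- and 0 in all CD51+ libraries, which makes hippocampus CD51+ at least 211-fold lower than hippocampus CD51-. Nlrc5, the transactivator of class I genes, was found in hippocampus CD51- only, at 9.20, 11.1 and 0.453 CPM, at least 41.3-fold above hippocampus CD51+. Both bounds pool the libraries of a group, and hippocampus CD51- replicate 3 held only 6 counts of Irf7 and 5 of Nlrc5. The cortex CD51- libraries had 0 counts of Nlrc5, while H2-K1 stood at 243 to 767 CPM in them. Both genes overlap another gene: Irf7 overlaps Phrf1, and Nlrc5 overlaps 9330175E14Rik on the opposite strand.

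Stat2 and Irf9 encode parts of the complex that binds the ISRE. Stat2 measured 2.69, 0.256 and 2.84 CPM in cortex CD51+ and 8.44, 9.59 and 12.7 CPM in cortex CD51-, without overlap, at a log2 fold change of -2.41 ± 1.83 (edgeR adjusted p = 0.393). Irf9 measured 0, 0 and 5.28 CPM against 11.8, 8.99 and 13.3 CPM, at -2.69 ± 2.35 (edgeR adjusted p = 0.469). In hippocampus the classes overlapped for both genes, with Stat2 highest in replicate 3 of each class, at 34.0 CPM in CD51+ and 65.2 CPM in CD51-. The hippocampus log2 fold change was -0.99 ± 1.74 for Stat2 and -1.27 ± 2.23 for Irf9 (edgeR adjusted p = 0.845 and 0.846), and both turned positive without hippocampus CD51- replicate 3, to 1.21 and 0.76. Exons of Irf9 overlap those of Rnf31 on the same strand.

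Of the 13 effector genes 8 were tested, of which 0 passed the threshold in either region and 1 did in the average. Xaf1, an interferon-induced gene linked to cell death, was that one. It passed the filter through its CD51- libraries only, so it had to differ in order to be tested. It had 0, 0 and 0.203 CPM in cortex CD51+ and 8.27, 2.88 and 11.4 CPM in cortex CD51-. In hippocampus it had 0 in all CD51+ libraries against 2.38, 20.5 and 0.362 CPM, at least 44.3-fold lower in CD51+ (edgeR adjusted p = 0.117). Over both regions 1 count stood against 454, a ratio of 271 with an interval of 48.4 to 10735 (edgeR adjusted p = 0.0105). In cortex Xaf1 missed the threshold (edgeR adjusted p = 0.103), as did Ifit3 (0.0796), of the IFIT family that binds viral RNA, Ifit2, of the same family (0.134), and Rsad2, the antiviral enzyme viperin (0.153). The last 3 had 0 counts in cortex CD51+ and 48, 81 and 50 counts in cortex CD51-, most of them in a single library for each gene. In hippocampus Ifit3 and Rsad2 lay the other way, at 1.17 ± 2.00 and 1.80 ± 2.44 on the log2 scale (edgeR adjusted p = 0.841 and 0.788).

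The better detected effectors overlapped between the classes. Ifih1, which encodes the RNA sensor MDA5, was 6.72, 7.82 and 199 CPM in cortex CD51+ and 30.8, 15.9 and 52.8 CPM in cortex CD51-. The third cortex CD51+ library held 983 of the 1084 counts of that group and was the highest of all 12 libraries. Its log2 fold change was 1.10 ± 1.26 in cortex (edgeR adjusted p = 0.597) and -1.69 ± 1.28 in hippocampus (edgeR adjusted p = 0.549). Ifitm3, a membrane protein that restricts viral entry, ranged from 0 to 22.3 CPM in CD51+ and from 1.90 to 68.9 CPM in CD51- libraries. Ifi27, another interferon-induced gene, ranged from 1.84 to 58.6 CPM in CD51+ and from 0 to 74.0 CPM in CD51-. Bst2, which encodes the virus-tethering protein tetherin, was under 0.5 CPM in all 6 cortex libraries and reached 32.4, 7.34 and 2.90 CPM in hippocampus CD51- and 3.52 CPM in 1 hippocampus CD51+ library.

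Several effectors widely used as a readout of interferon signalling were near the limit of detection. Isg15, the ubiquitin-like modifier whose promoter holds the 3 ISRE cores shown above, had 0 counts in all 6 CD51+ libraries and 52 in the CD51- libraries, at most 2.79 CPM. Pooled over both regions this was at least 10.4-fold lower in CD51+. Of the 52 counts, 30 lay in hippocampus CD51- replicate 2. The 15 counts of cortex CD51- all lay in 1 library, so the bound does not describe every CD51- library. Mx1, a dynamin-like antiviral GTPase, had 1 count in all 12 libraries. Usp18, the protease that removes ISG15, had 62 of its 63 counts in cortex CD51- replicate 2. Oasl2, of the oligoadenylate synthetase family, had 25 counts. Ifit1 had 156 of its 182 counts in hippocampus CD51+ replicate 2 (20.9 CPM). For the last 4 the depth does not allow a comparison of classes.

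Of the 4 receptor chains, all tested, 1 was called in cortex and 0 in hippocampus. Ifngr1, the ligand-binding chain of the interferon gamma receptor, measured 4.70, 5.77 and 18.5 CPM in cortex CD51+ and 276, 410.3 and 73.2 CPM in cortex CD51-. In hippocampus it measured 1.15, 8.85 and 44.4 CPM against 55.8, 175 and 95.9 CPM. The classes did not overlap in either region, and in hippocampus the highest CD51+ library was again replicate 3. The log2 fold change was -4.72 ± 1.12 in cortex (edgeR adjusted p = 0.00866), a call kept whichever library was left out, and -2.58 ± 1.02 in hippocampus (edgeR adjusted p = 0.16). Averaged over the regions it was -3.65 ± 0.75 (edgeR adjusted p = 0.00146).

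Ifngr2, the signalling chain of the same receptor, measured 6.55, 0.513 and 0.203 CPM in cortex CD51+ and 23.9, 31.03 and 30.9 CPM in cortex CD51-, at -3.55 ± 1.76 (edgeR adjusted p = 0.167). In hippocampus 1 CD51+ library held 36.9 CPM and the others under 2 CPM, so the classes overlapped. Ifnar1, a chain of the type I receptor, stood at 16.1, 169 and 164 CPM in cortex CD51+ libraries but at 69.3, 5.39 and 25.8 CPM in the cortex CD51- ones. The hippocampus CD51+ libraries, at 10.6, 27.5 and 31.5 CPM, all lay below the 58.7, 38.1 and 48.3 CPM of hippocampus CD51-. Its log2 fold changes were 1.79 ± 1.04 and -1.06 ± 1.02 (edgeR adjusted p = 0.244 and 0.671), and the test of the difference between regions gave an edgeR adjusted p of 0.423. Ifnar2, the other type I chain, ranged from 0.229 to 31.7 CPM in CD51+ and from 1.80 to 30.4 CPM in CD51-, and its small cortex fold change of 0.32 ± 1.89 changed sign with the library left out. Exons of Ifnar2 overlap those of Gm21970 on the same strand.

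**Figure D3:**
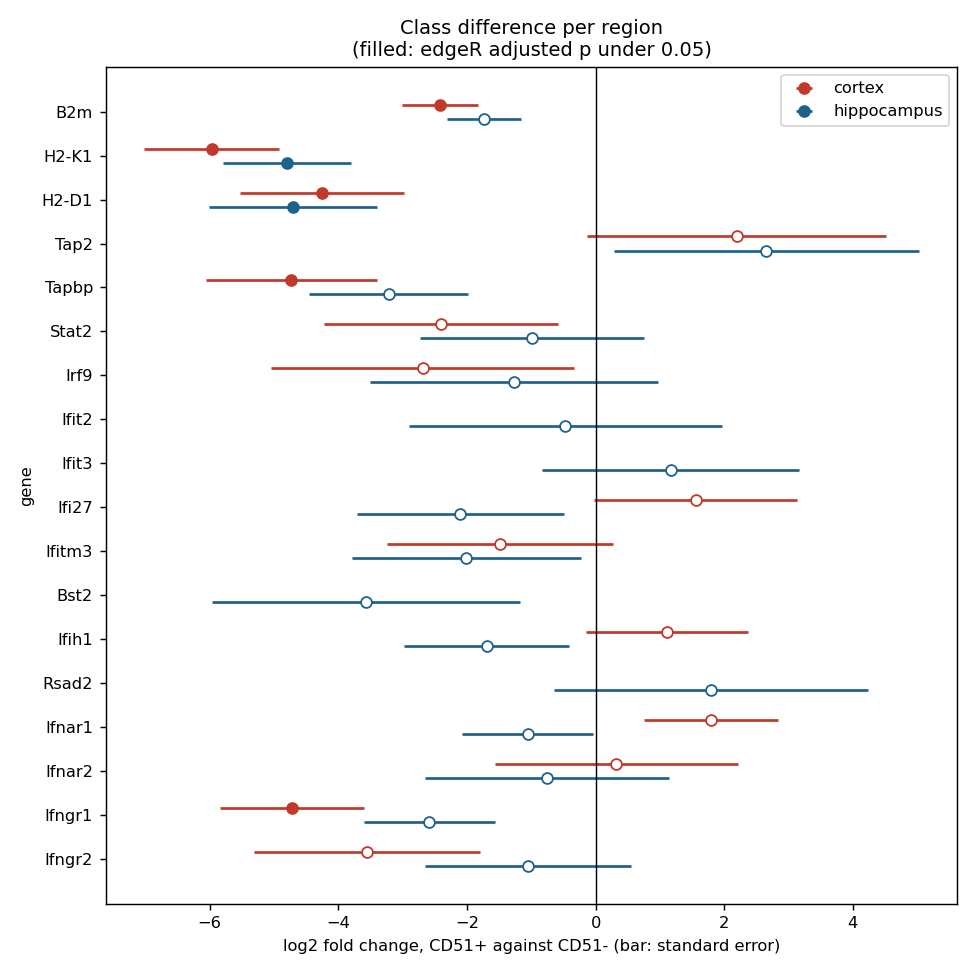
Log2 fold change of CD51+ against CD51- on the horizontal axis, with the standard error as a bar, in cortex (red) and hippocampus (blue), filled where the edgeR adjusted p was under 0.05. Values with 0 to 3 counts in a class are left out; the called genes all lie left of 0, from -2.42 for B2m to -5.97 for H2-K1 in cortex.

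Corrected for length, B2m stood far above the other members. In CPM per kilobase of exon its level was 1138 to 1960 in cortex CD51- and 158 to 488 in cortex CD51+, and 1266 to 1609 against 149 to 729 in hippocampus. H2-K1 and H2-D1 summed, on the same scale, amounted to 11.2% to 19.4% of the B2m level in cortex CD51- and to 1.57% to 2.73% in cortex CD51+. In hippocampus the sum was 4.79% to 20.7% of B2m in CD51- and 0.57% to 1.89% in CD51+. The ranges did not overlap in either region, so the heavy chains stood lower relative to the light chain in the CD51+ libraries, as the larger fold changes of H2-K1 and H2-D1 also show. The class I genes are spread over different chromosomes, B2m on chromosome 2 and 8 other members, from Tapbp to H2-T23, in the MHC region of chromosome 17. These 8 include both called and nearly absent genes.

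Between the regions, 0 of the 21 tested members differed by edgeR with the classes averaged, where 0.19% of all tested genes were called. At an unadjusted p under 0.05 the count was 1, where 15.1% of all tested genes reached it, and DESeq2 and limma-voom also called 0. The smallest p belonged to Bst2, which was higher in hippocampus by 4.77 ± 1.82 on the log2 scale (edgeR adjusted p = 0.204), and to Ifit2, at 3.74 ± 1.93 (edgeR adjusted p = 0.372). Both fitted values rest on few cortex counts and are no bounds: in CD51+ and CD51-, Bst2 had 2 and 4 counts and Ifit2 0 and 81. With single libraries left out, Bst2 ranged from 1.61 to 6.42 and Ifit2 from 3.43 to 7.30. B2m differed by 0.17 ± 0.39 and H2-K1 by -0.02 ± 0.62. The class difference itself was not shown to differ between regions: the interaction was called for 0 members and 0 of all tested genes (0%) by edgeR. At an unadjusted p under 0.05 there were 2 members, Ifit3 and Rsad2 (edgeR adjusted p = 0.301 and 0.379), where 12.6% of all tested genes reached it. DESeq2 and limma-voom also called 0 members. The calls of cortex that hippocampus lacks are therefore no evidence of a regional effect.

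A list of 66 other genes of these pathways was read in the same way, and 52 of them were tested. In cortex 11 were lower and 0 higher, where 6.27% of all tested genes were lower. In hippocampus 7 were lower and 1 higher (2.7% of all tested genes lower), and averaged over the regions 21 were lower and 1 higher (13.9% lower). Of these lower genes, 5 in cortex (Cgas, Cxcl10, H2-Q6, H2-Q7 and Cd74), 3 in hippocampus and 12 in the average reached the filter level in no CD51+ library, so they too had to differ in order to be tested. DESeq2 called 16 lower and 3 higher in cortex, and limma-voom 14 and 2. The 8 calls of hippocampus were 4, 3 and 5 without CD51+ libraries 1, 2 and 3, and 3 and 5 without CD51- libraries 2 and 3. The 3 Q-region heavy chains H2-Q4, H2-Q6 and H2-Q7 were lower in both regions. H2-Q7 had 0 counts in all CD51+ libraries against 6.57 to 56.4 CPM in CD51-. H2-Q6 in cortex was close to the threshold (edgeR adjusted p = 0.0494) and kept its call in 5 of 22 alternative fits. The call was lost in 11 of the fits without 1 library, and under upper-quartile scaling, other filters or a replicate block. In hippocampus the calls of H2-Q4, H2-Q6 and H2-Q7 were lost when single libraries were left out, with adjusted p up to 0.171. Tlr7, an endosomal sensor of RNA, was 1.01 to 50.1 CPM in cortex CD51+ and 581 to 599.7 CPM in cortex CD51-, at -5.02 ± 1.04 in cortex and -5.61 ± 1.07 in hippocampus (edgeR adjusted p = 0.00293 and 0.00302). Irf8, a regulatory factor of the myeloid lineage, was at -7.30 ± 1.34 and -4.92 ± 1.20 (edgeR adjusted p = 0.00123 and 0.022). In hippocampus the call of Irf8 ended when CD51+ library 1 or 2 was left out (adjusted p = 0.0918 and 0.105).

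Tmem173, which encodes the adaptor STING, and Cd74, the class II invariant chain, were lower in both regions. Tmem173 had 0 counts in cortex CD51+ against 45.8 to 99.9 CPM in CD51-, and Cd74 had 0 to 0.203 CPM in CD51+ libraries of either region against 11 to 79.1 CPM in CD51-. The hippocampus call of Tmem173 was lost in 4 of the fits without 1 hippocampus library, with adjusted p up to 0.143. Also lower in cortex by the test were Socs3, a feedback inhibitor of cytokine signalling, Parp14, Cxcl10, a chemokine induced by interferon gamma, and Cgas, the DNA sensor that activates STING. Of these, Cgas lost the call without any of 11 single libraries (adjusted p up to 0.135), and Cxcl10 without cortex CD51+ library 2 or 3 (0.0504 and 0.0505) or CD51- library 1 (0.0785). The gene called higher in hippocampus was Psme2, a subunit of the proteasome activator, which measured 1416 CPM in CD51+ replicate 1 and 4.69 to 15.2 CPM in the other 5 hippocampus libraries. Without that library its adjusted p was 0.979, and without hippocampus CD51- replicate 2 it was 0.0569. The gene called higher in the average was Tlr3, a sensor of double-stranded RNA, at 1.61 ± 0.57 (edgeR adjusted p = 0.0447). No listed gene was higher in the average without cortex CD51+ library 1, cortex CD51- library 2, or hippocampus CD51+ library 1, CD51- library 1 or CD51- library 3. Of the 3 interferon genes listed, Ifnb1, Ifng and Ifna4, 1 had any count, at most 0.438 CPM in a library.

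Markers of several other cell types also differed between the classes. The summed level of 14 microglial markers was 340 to 1022 CPM in cortex CD51+ and 8804 to 12430 CPM in cortex CD51-, and 208 to 1763 CPM against 5804 to 8362 CPM in hippocampus. By edgeR 9 of the 14 were lower in cortex, 7 in hippocampus and 13 in the average. Of all tested genes 6.27%, 2.7% and 13.9% were lower in these comparisons. Among the defining markers, P2ry12 and Csf1r had counts in every library, while Aif1 was at 0 in all cortex CD51+ libraries. Of the 6 CD51+ libraries, hippocampus CD51+ replicate 3 had the highest microglial sum and the highest B2m, H2-K1 and Ifngr1, while H2-D1 was highest in cortex CD51+ replicate 2 and Tapbp was lowest of its group in hippocampus CD51+ replicate 3. The 7 markers of border macrophages and other leukocytes summed to 0.168 to 31.3 CPM in CD51+ and 499 to 730.4 CPM in CD51- libraries, and all 5 that were tested were lower in cortex and in the average and 4 in hippocampus. Cd163 and Lyve1 were at 0 in all CD51+ libraries, and Cd3e was at 0 in all 12. A marker at 0 in every CD51+ library can pass the filter through CD51- libraries only, so it had to differ in order to be tested. The part of these cells in the class difference of B2m, H2-K1, H2-D1, Tapbp, Irf1 and Ifngr1 was not tested.

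The level of B2m was 11.1% to 21.0% of the microglial sum in the 6 CD51- libraries and 26.9% to 147% in the 6 CD51+ libraries. Other lists differed between the classes too. The 10 oligodendrocyte markers summed to 1253 to 4935 CPM in CD51+ and 6877 to 63816 CPM in CD51- libraries. Of these 5 were lower in cortex, 2 in hippocampus and 5 in the average. Of the 12 astrocyte markers 9, 6 and 12 were higher, where 5.05%, 0.618% and 8.87% of all tested genes were higher. The 8 genes of the dissociation response, such as Fos and Jun, summed to 34.4 to 257 CPM in CD51+ and 4839 to 13469 CPM in CD51-. All 8 were lower in cortex, 6 in hippocampus and 8 in the average, where 6.27%, 2.7% and 13.9% of all tested genes were lower. Endothelial markers summed to at most 62.8 CPM in any library, and the 3 markers of oligodendrocyte precursors to at most 7.88 CPM. The 6 neuronal markers lay the other way in hippocampus, at 188 to 387 CPM in CD51+ and 24.3 to 104 CPM in CD51-, and overlapped in cortex, and 0 of the 4 tested were called in either region. The 4 pericyte markers overlapped between the classes in both regions, with 1 of 2 tested called higher in CD51+ in cortex and 0 in hippocampus. The parts of these lists, and of the mitochondrial share, in the results for the members were not tested.

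**Figure D4:**
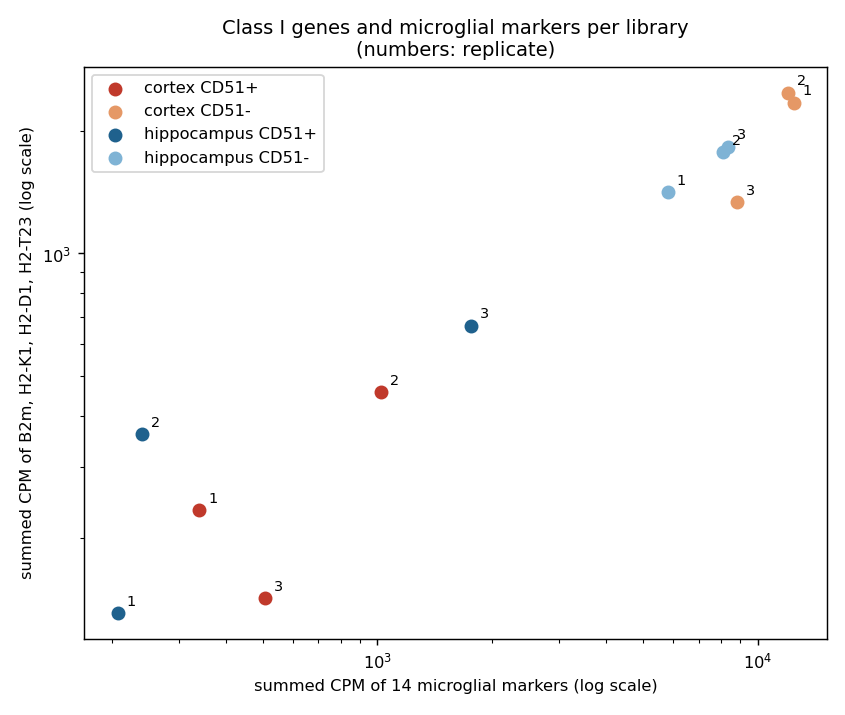
Summed CPM of B2m, H2-K1, H2-D1 and H2-T23 (vertical, log scale) against the summed CPM of 14 microglial markers (horizontal, log scale), 1 point per library with its replicate number. The 6 CD51+ libraries reach at most 1763 CPM of microglial markers and 666 CPM of class I genes, and the 6 CD51- libraries start at 5804 and 1338 CPM.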

How the data were processed

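RNA-seq counts of 12 libraries were analysed, 3 in each of 4 groups set by the sample titles. Each deposited value is an unnormalized count of read pairs on a gene's exons, made with featureCounts 2.0.4 and the GENCODE vM25 annotation per the file headers, unstranded and with primary alignments only. The submitters' processing notes name STAR, DESeq2 1.40.2 and the build mm10. Of the 55401 gene IDs, 55141 had a symbol in GENCODE vM21, and coordinates are those of the count file. Promoters came from RefSeq tables (GRCm38.p6).

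Genes were kept with filterByExpr of edgeR 4.0.16 (minimum count 10, minimum total 15), and tested with its quasi-likelihood F test in R 4.3.3. All 12 libraries entered 1 fit with TMM factors and 4 group levels, with Benjamini-Hochberg adjustment over 12613 genes at 0.05. The biological coefficient of variation was 1.28. A standard error is the absolute log2 fold change over the square root of F. Genes with 0 counts in a class got a floor of 3 counts over the group, and those with 1 to 3 counts a ratio with an exact 95% interval. Scripts were tested on simulated data. All members are accounted for; those past the threshold are named first, then those with the smallest p in each role group. Other pathway genes are named where called in a region, and markers as sums. Alternatives were DESeq2 1.42.0, limma-voom (limma 3.58.1), RLE factors, upper-quartile scaling, other filters, a replicate block, mitochondrial genes left out, 1 region only and each library left out. Leaving out 2 CD51+ libraries together was added after seeing the data. The members and lists were chosen with earlier results of these data known. Plots used matplotlib 3.10.9 (Python 3.11.15).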

Additional observations from a re-analysis of the deposited data

How the results depend on the processing

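The 6 members called in cortex were 8 by DESeq2 and 8 by limma-voom, and between 2 and 6 with single libraries left out, the 2 being without cortex CD51+ replicate 3. The 2 members called in hippocampus were 5 by DESeq2, 4 with no filter on low counts, 4 with 2 CD51+ libraries left out together, and 1 under upper-quartile scaling or with only the hippocampus libraries. With single libraries left out they ranged from 1 to 4. H2-K1 in hippocampus missed the threshold by limma-voom (adjusted p = 0.0759). The 8 of the average ranged from 7 to 9. Of the other pathway genes, 11 were called in cortex as reported and 19 by DESeq2, and 8 in hippocampus as reported and 13 by DESeq2. With single libraries left out they were 8 to 12 and 3 to 11. No member was called higher under any of these settings, and the region and interaction counts stayed 0. Upper-quartile scaling moved the median of all genes in hippocampus from -0.22 to 0.01, and limma-voom that of cortex from -0.03 to 0.15. The causes of these changes were not tested. Counts near 0, together with a coefficient of variation of 1.28, limit what most effectors can show.

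Some values changed sign. Ifnar2 in cortex, 0.32 as reported, was -0.12 by limma-voom and ranged from -2.38 to 2.06 with single libraries left out, and its average, -0.22 as reported, from -2.77 to 0.60. In hippocampus, Stat2 (-0.99) ranged from -3.61 to 1.21 and Irf9 (-1.27) from -4.64 to 0.76, and Rsad2 in the average (-2.38) from -4.24 to 0.35. The 3 highest values were those without hippocampus CD51- replicate 3.

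With the replicate number as a block, 6 members were called in cortex, 2 in hippocampus, 7 in the average (H2-T23 was lost, adjusted p = 0.0534) and 0 in the others. Same-numbered libraries did not deviate together: 0 of 18 pairs had a correlation over 0.1 (range -0.0478 to 0.0272). This gave no sign that the numbers pair the libraries. It cannot exclude a shared mouse or sort, since the spread between libraries was large and each group mean rests on 3 libraries.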
